A study of Mus musculus with 9 samples.

Results

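Guanylate-binding proteins (GBPs) are large GTPases that cells make in quantity after exposure to interferon gamma. The gene family was examined in periprostatic fat, the adipose depot beside the prostate, of male mice on 2 diets. Members were the genes on a list of 10 symbols, Gbp2 to Gbp11, that had a probe set carrying exactly 1 gene symbol. Of the 10 listed genes, 9 were reached, among 22180 genes measured in this way. Gbp2 was not reached, because its probe set is shared with Gbp2b, the mouse gene formerly called Gbp1. Where a gene has several such probe sets, the one to keep is chosen by its mean over all 9 arrays, but each of the 9 members had a single one. No diet difference entered the rule, although the family was proposed with results of these data known. The comparison set 5 mice fed a high fat diet (60 kcal% fat) against 4 mice fed a low fat diet (10 kcal% fat). All were C57BL/6J males, with no altered gene named in the labels, given their diet from 6 weeks of age for 12 weeks and sampled at 18 weeks. Each array carried the total RNA of 1 mouse, so the replicate is the animal. Values are log2 expression on Affymetrix Mouse Gene 2.0 ST arrays, and the number of arrays limits their precision.

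GBPs belong to the dynamin superfamily. After interferon gamma binds its receptor, the kinases Jak1 and Jak2 pass the signal on, and transcription factors that include Irf1 switch on GBP genes and the related immunity-related GTPases. The proteins gather on membranes around intracellular microbes and on the microbes themselves, and they promote the opening of pathogen vacuoles and the activation of inflammasomes. In fat, macrophages, lymphocytes, endothelial cells and adipocytes can all respond to interferon gamma.

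In the RefSeq annotation of the assembly GRCm38.p6, which served for names and gene order, the family forms a cluster on chromosome 3 and a cluster on chromosome 5. Along chromosome 3 the order is Gbp5, Gbp7, Gbp3, Gbp2b and Gbp2, and along chromosome 5 it is Gbp8, Gbp9, Gbp4, Gbp10, Gbp6 and Gbp11. No other protein-coding gene starts between neighbours within either cluster. All of these genes are annotated as protein coding except Gbp11, which is a transcribed pseudogene. GBP genes of a cluster are similar copies, and a probe can take up signal from a paralog, so which copy a value belongs to is uncertain for every member.

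Promoter sequence was at hand for Gbp2, Gbp3, Gbp5 and Gbp7 of the list and for Gbp2b, from RefSeq on GRCm38.p6. Stretches of 100 bases upstream of a transcription start are shown because each holds the core of an interferon-stimulated response element, the site read by interferon regulatory factors. The core was searched as GAAANNGAAA on both strands, and it is in capitals below, where it reads as its reverse complement, TTTCNNTTTC. The core of the gamma-activated site, TTCNNNGAA, was searched too. It is in capitals only where a whole match lies within a stretch, the Gbp7 match that begins 87 bases before the start. All 5 stretches lie on the plus strand and run 5′ to 3′.
Gbp5, chr3:142496724-142496823: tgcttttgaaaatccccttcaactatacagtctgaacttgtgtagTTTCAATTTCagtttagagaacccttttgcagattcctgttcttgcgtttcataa
Gbp7, chr3:142530236-142530335: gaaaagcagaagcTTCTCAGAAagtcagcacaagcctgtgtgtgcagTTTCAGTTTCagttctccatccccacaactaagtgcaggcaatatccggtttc
Gbp3, chr3:142559944-142560043: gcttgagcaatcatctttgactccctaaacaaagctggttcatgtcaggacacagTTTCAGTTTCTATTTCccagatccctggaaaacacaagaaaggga
Gbp2b, chr3:142594665-142594764: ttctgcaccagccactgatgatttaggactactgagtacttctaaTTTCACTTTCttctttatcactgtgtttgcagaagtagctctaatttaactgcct
Gbp2, chr3:142620559-142620658: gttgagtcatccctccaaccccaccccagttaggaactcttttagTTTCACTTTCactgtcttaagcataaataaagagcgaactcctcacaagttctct

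The response element core began 165 bases before the start of Gbp5, 137 before that of Gbp2b, 59 before that of Gbp2 and 53 before that of Gbp7. Gbp3 held 2 overlapping matches, the first of them 45 bases before the start, and the window of its other annotated start held none. Over all RefSeq promoter windows of 300 bases (250 before and 50 after the start), 3.44% held this core. The core of the gamma-activated site was found in 8.30% of all windows. Gbp5 held it 245 and 52 bases before the start and Gbp7 106 and 87 bases before, while the windows of Gbp2, Gbp2b and Gbp3 held no match. No match of one core overlapped a match of the other in these windows. These matches are descriptions of letters and do not show that a factor bound there.

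All 9 measured members had lower mean values in high fat mice than in low fat mice, as had 50.4% of all genes, with a median log2 difference of -0.76, against a median of -0.0011 over all 22180 genes. By limma with Benjamini-Hochberg adjustment over all genes, 5 of 9 members fell (Gbp3, Gbp4, Gbp5, Gbp7 and Gbp11) and 0 rose. Over all genes 9.13% fell in the same fit, 12.4% rose and 21.5% changed in either direction. At an unadjusted p under 0.05, 7 members were lower and 0 higher. The share of all genes at this unadjusted threshold was not counted. It is at least the 21.5% called after adjustment, since adjustment never lowers a p-value. This applies to every later count at an unadjusted p. The members were proposed with earlier results of these data known, so these counts are a description. With quantile normalization repeated, 2320 genes rose and 2771 fell over all genes, against 2742 and 2026 here, and 6 members then fell and none rose.

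**Figure D1:**
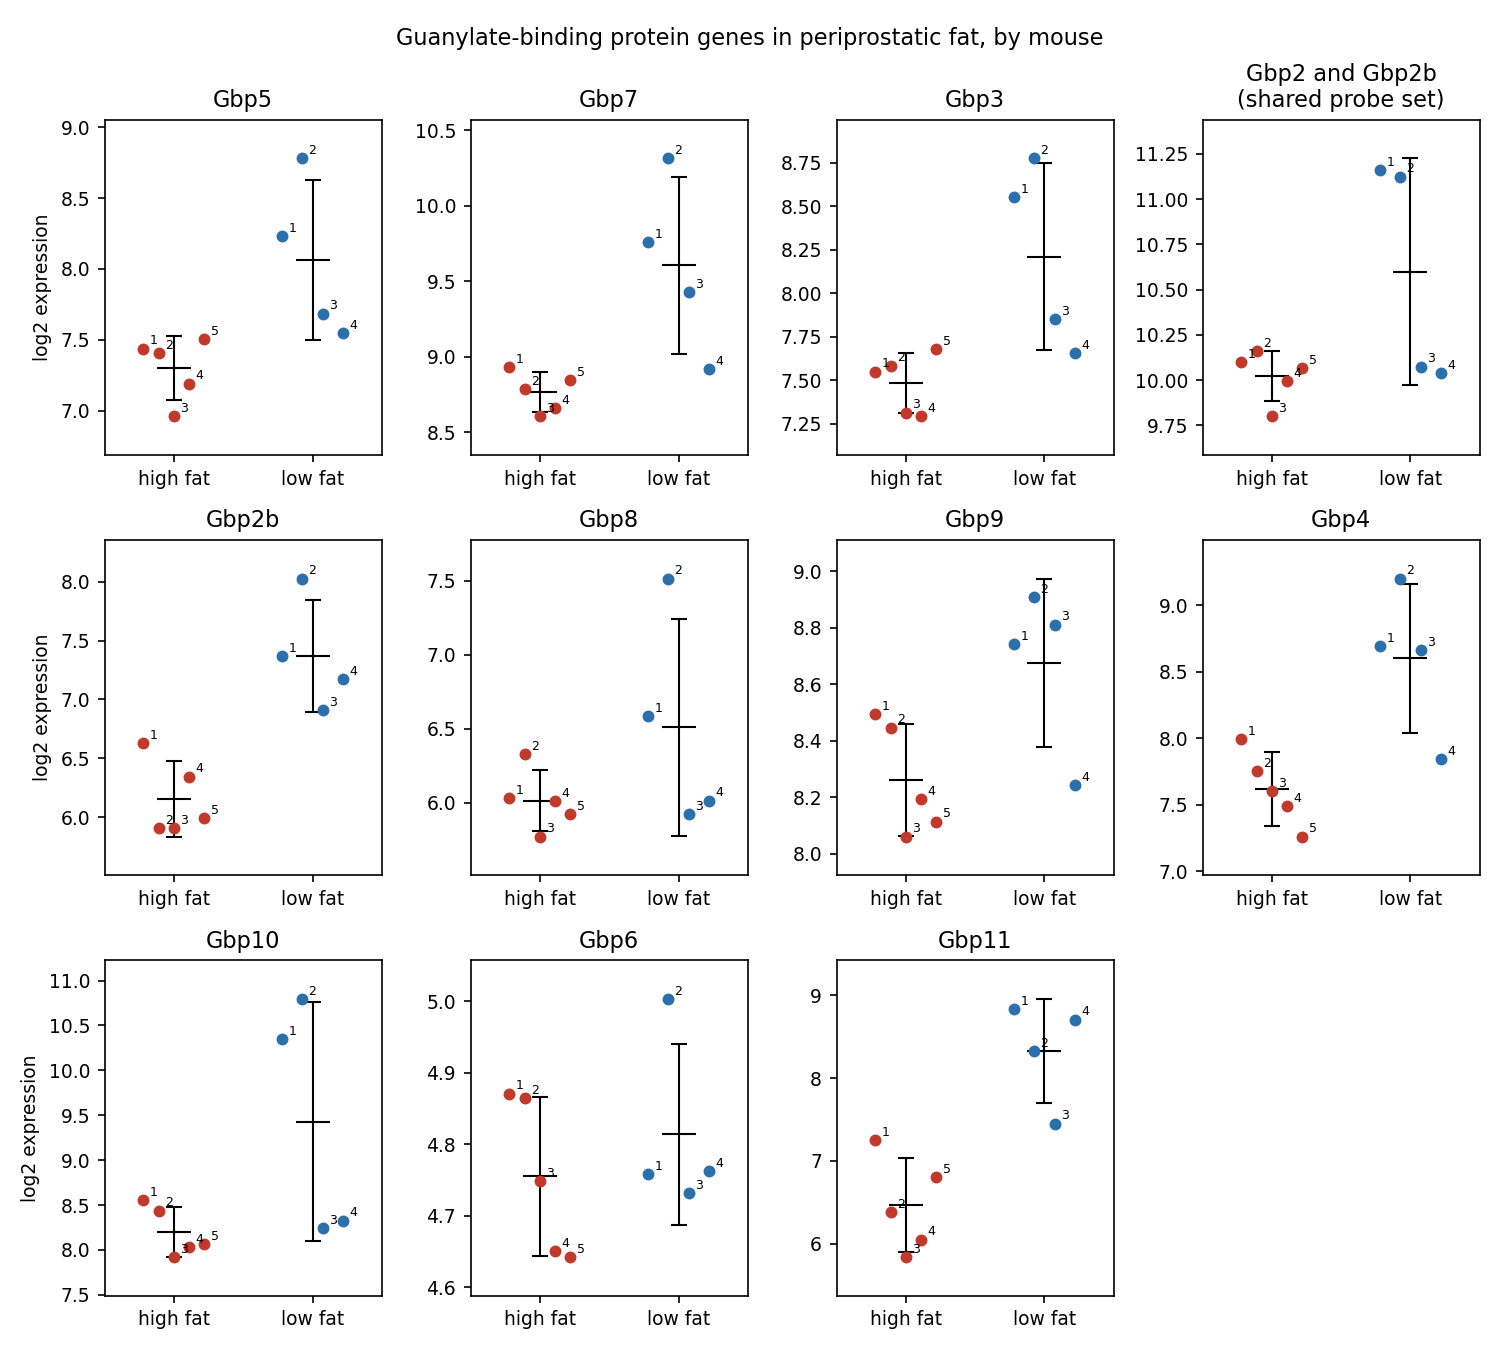
Log2 expression of each GBP gene in periprostatic fat, with 1 point per mouse (numbered within its diet), a horizontal bar for the mean and whiskers for the SD; the panel marked as shared is the probe set of Gbp2 and Gbp2b, and each panel has its own axis. High fat mice are lower on average and have the smaller SD in every panel, though for Gbp11 their range is not smaller. Low fat mice 1 and 2 stand above low fat mice 3 and 4 in most panels.

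On chromosome 3, the members are Gbp5, Gbp7 and Gbp3. Gbp5, which promotes assembly of the Nlrp3 inflammasome in mouse macrophages, was at 7.44, 7.41, 6.96, 7.19 and 7.50 in high fat mice 1 to 5, against 8.23, 8.78, 7.68 and 7.55 in low fat mice 1 to 4. Every high fat mouse lay below every low fat mouse, though the highest of one diet and the lowest of the other were close. The high fat mean was 7.30 ± 0.22 (SD, n = 5) and the low fat mean 8.06 ± 0.56 (SD, n = 4), and Gbp5 was 1.69-fold lower, a log2 difference of -0.76 ± 0.23 (SE) with a limma adjusted p of 0.0415.

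Gbp7, which helps to bring the phagocyte oxidase to pathogen vacuoles in mouse macrophages, was at 8.93, 8.79, 8.61, 8.66 and 8.85 in high fat mice, against 9.76, 10.31, 9.43 and 8.92 in low fat mice. The diets overlapped by 1 pair, high fat mouse 1 and low fat mouse 4. The gene was 1.79-fold lower, with a high fat mean of 8.77 ± 0.13 (SD, n = 5), a low fat mean of 9.60 ± 0.59 (SD, n = 4), a log2 difference of -0.84 ± 0.23 (SE) and a limma adjusted p of 0.0252.

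Gbp3 was at 7.55, 7.58, 7.31, 7.29 and 7.68 in high fat mice, against 8.55, 8.78, 7.85 and 7.66 in low fat mice. High fat mouse 5 and low fat mouse 4 were nearly level and the other pairs did not overlap. Gbp3 was 1.65-fold lower (log2 difference -0.73 ± 0.21 (SE), limma adjusted p = 0.0367).

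The calls of Gbp3, Gbp5 and Gbp7 were lost under some alternatives. With all 9 arrays kept, genes Gbp3 and Gbp5 no longer passed with all rows of the table adjusted together (limma adjusted p = 0.0532 and 0.0595) or with skeletal muscle markers as a covariate (0.0521 and 0.0587), and gene Gbp5 did not pass with array weights (0.0521). Gene Gbp3 no longer passed without any 1 of high fat mice 1, 2, 3 and 4 or low fat mice 1 and 2 (limma adjusted p from 0.0620 to 0.100). Gene Gbp5 no longer passed without any 1 of the 5 high fat mice or low fat mice 1 and 2 (limma adjusted p from 0.0534 to 0.101). Gene Gbp7 no longer passed without high fat mouse 2, 3 or 4 or low fat mouse 1 (limma adjusted p from 0.0515 to 0.0657). Without low fat mouse 2 the differences of Gbp3 and Gbp5 were -0.54 and -0.52.

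The same cluster holds Gbp2 and Gbp2b, whose values were looked at after the members' values were known. The probe set shared by Gbp2 and Gbp2b was at 10.10, 10.16, 9.80, 9.99 and 10.06 in high fat mice, against 11.16, 11.12, 10.07 and 10.04 in low fat mice. Low fat mice 3 and 4 lay within the range of the high fat mice, and low fat mice 1 and 2 lay above it. Fitted with all 33793 rows of the table, this probe set had a log2 difference of -0.57 ± 0.25 (SE) and did not pass (limma adjusted p = 0.162).

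Gbp2b also has a probe set of its own, at 6.63, 5.90, 5.91, 6.35 and 5.99 in high fat mice, against 7.37, 8.03, 6.91 and 7.17 in low fat mice. Here the diets did not overlap. Gbp2b was 2.32-fold lower, a log2 difference of -1.21 ± 0.23 (SE) with a limma adjusted p of 0.00379 over the 22180 genes.

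On chromosome 5, Gbp11 and Gbp4 passed the test. Gbp11, the transcribed pseudogene, was at 7.25, 6.38, 5.84, 6.05 and 6.81 in high fat mice, against 8.84, 8.33, 7.45 and 8.71 in low fat mice. The diets did not overlap, and low fat mouse 4 was among the high mice for this gene, unlike for Gbp3, Gbp4, Gbp5 and Gbp7. Gbp11 had the largest difference of the 9 members: it was 3.65-fold lower, with a high fat mean of 6.46 ± 0.57 (SD, n = 5), a low fat mean of 8.33 ± 0.63 (SD, n = 4), a log2 difference of -1.87 ± 0.34 (SE) and a limma adjusted p of 0.00331.

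Gbp4, reported in mouse cells to restrain the interferon regulatory factor Irf7, was at 7.996, 7.75, 7.60, 7.49 and 7.26 in high fat mice, against 8.70, 9.20, 8.67 and 7.84 in low fat mice. High fat mouse 1 lay above low fat mouse 4, and no other pair overlapped. Gbp4 was 1.97-fold lower, with a log2 difference of -0.98 ± 0.24 (SE) and a limma adjusted p of 0.0164. Gbp4 and Gbp11 passed without each mouse in turn and under every other alternative run. Over the 9 members, 2 had diets that did not overlap (Gbp5 and Gbp11), against 9.15% of all genes that were lower without overlap.

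The other members on chromosome 5 did not pass. Gbp10, which contributed to resistance to bacteria in mouse macrophages, was at 8.55, 8.44, 7.92, 8.03 and 8.06 in high fat mice, against 10.35, 10.80, 8.25 and 8.33 in low fat mice. Low fat mice 1 and 2 stood 2.29 log2 units above low fat mice 3 and 4 on average, which lay among the high fat mice. The difference of Gbp10 was -1.23 ± 0.51 (SE), larger than that of Gbp4, with a limma adjusted p of 0.123. Without low fat mouse 3 it was -1.62 and passed (limma adjusted p = 0.0467), whereas without low fat mouse 2 it was -0.77 and without low fat mouse 1 it was -0.92 (limma adjusted p = 0.279 and 0.276).

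Gbp9 was at 8.49, 8.45, 8.06, 8.19 and 8.11 in high fat mice, against 8.74, 8.91, 8.81 and 8.24 in low fat mice. Low fat mouse 4 fell among the high fat mice and the other low fat mice lay above all of them. The difference of Gbp9 was -0.41 ± 0.14 (SE) with a limma adjusted p of 0.0658, and without low fat mouse 4 it was -0.56 and passed (limma adjusted p = 0.00803). With all mice kept, gene Gbp9 also passed with quantile normalization repeated (-0.46, limma adjusted p = 0.0259), with arrays centred on their medians (0.0348) and with dim genes left out (0.0401), and it passed without high fat mice 1 and 2 together (0.0469).

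Gbp8 was at 6.03, 6.33, 5.77, 6.01 and 5.93 in high fat mice, against 6.59, 7.51, 5.92 and 6.01 in low fat mice, and the difference was -0.50 ± 0.29 (SE; limma adjusted p = 0.271). Low fat mice 3 and 4 lay within the range of the high fat mice. Without low fat mouse 2 the difference of gene Gbp8 was -0.16, and with array weights it was -0.32 (limma adjusted p = 0.571 and 0.439). Gbp6, another gene with a role in resistance to bacteria in mouse macrophages, was at 4.87, 4.87, 4.75, 4.65 and 4.64 in high fat mice, against 4.76, 5.00, 4.73 and 4.76 in low fat mice. The values of Gbp6 were among the lowest on the arrays, with a mean over all arrays at the 4.58th percentile of genes, and its difference was -0.06 ± 0.07 (SE; limma adjusted p = 0.638). The mean of Gbp8 over all arrays, 6.23, also lay below the medians of the arrays over all genes, which ran from 6.91 to 6.98. In low fat mouse 2, at 7.51, Gbp8 lay above them. Whether Gbp6 and Gbp8 lay above background was not determined.

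**Figure D2:**
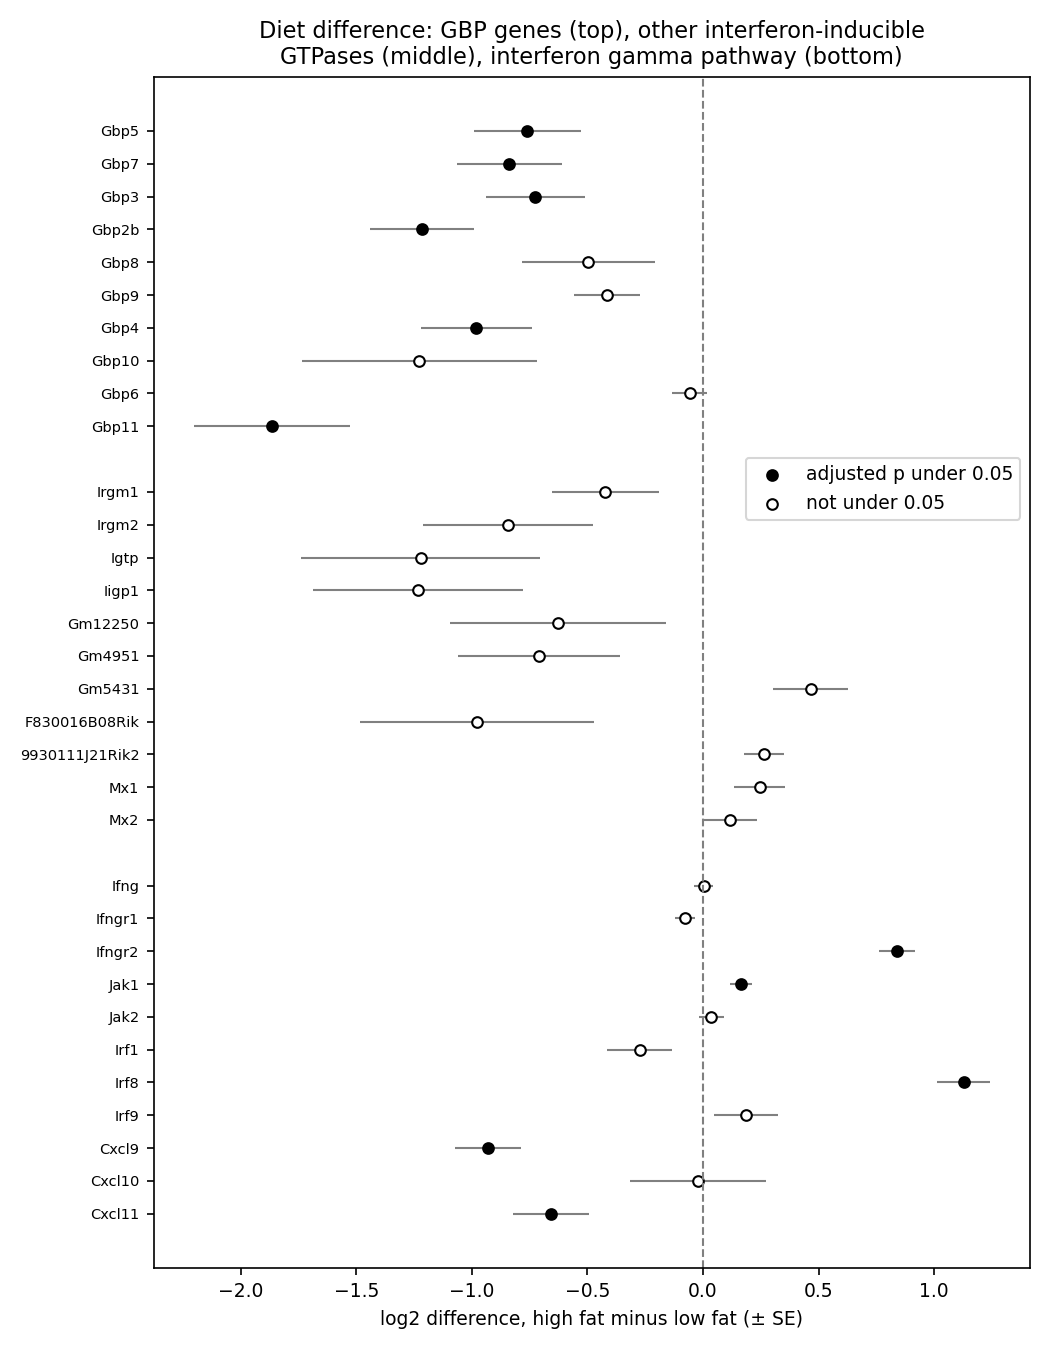
Log2 difference between diets (high fat minus low fat, points) with its moderated standard error (bars) for GBP genes, for other interferon-inducible GTPases and for interferon gamma pathway genes; filled points have a limma adjusted p under 0.05 over all genes. All GBP points lie left of 0, from -1.87 for Gbp11 to -0.06 for Gbp6, and the pathway genes lie on both sides.

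The members varied most among the low fat mice. The SD was larger in low fat mice than in high fat mice for all 9 members, whereas over all genes this held for 57.1%. Whether the spread differed was not tested. Low fat mouse 2 was the highest low fat mouse for 8 members, the exception being Gbp11, and for 6 members (Gbp3, Gbp4, Gbp5, Gbp7, Gbp8 and Gbp10) low fat mice 1 and 2 both lay above low fat mice 3 and 4. The mean over the 9 members was 7.46, 7.33, 6.98, 7.06 and 7.20 in high fat mice 1 to 5, against 8.28, 8.62, 7.64 and 7.56 in low fat mice 1 to 4. The lowest low fat mouse was thus close to the highest high fat mouse.

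Within diets, the members moved together from mouse to mouse to unequal degrees. After each diet's mean was subtracted from each gene, a member's correlation with the mean of the other 8 over the 9 arrays ran from 0.67 for Gbp9 to 0.95 for Gbp5, except for Gbp11 at 0.28. Without low fat mice 2 and 4, the arrays farthest from the median of the members' mean, gene Gbp11 was at 0.87, and genes Gbp4 and Gbp9 were at 0.32 and 0.36. These correlations share arrays and rest mainly on the low fat mice, which held 84.0% of the within-diet sum of squares of the members' mean.

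Genes outside the list were ranked by how like the members' mean their within-diet pattern was, with predicted and unnamed gene models left out. The 6 most alike included 2 immunity-related GTPases, Igtp (r = 0.98 over the 9 arrays) and Iigp1 (0.97). The others were Trim21, an intracellular antibody receptor and ubiquitin ligase (0.99), Calhm6, a membrane channel-like protein (0.98), the centrosomal gene Cep126 (0.97) and the ribosomal protein pseudogene Rpl17-ps10 (0.97). Without low fat mice 2 and 4 the correlations ran from 0.93 for Cep126 to 0.98 for Trim21. The genes were picked as the highest over all genes ranked on these same arrays, so high values were fixed by the choice. No link of these genes with the family was tested. Not all of these genes differed by diet, and gene Calhm6 had a high fat mean of 6.53 ± 0.15 (SD, n = 5) and a low fat mean of 6.50 ± 0.40 (SD, n = 4) (limma adjusted p = 0.946). Cep126 fell by 0.30 on the log2 scale (limma adjusted p = 0.0221), a call lost without high fat mouse 3 or low fat mouse 1 (limma adjusted p = 0.0545 and 0.0605).

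**Figure D3:**
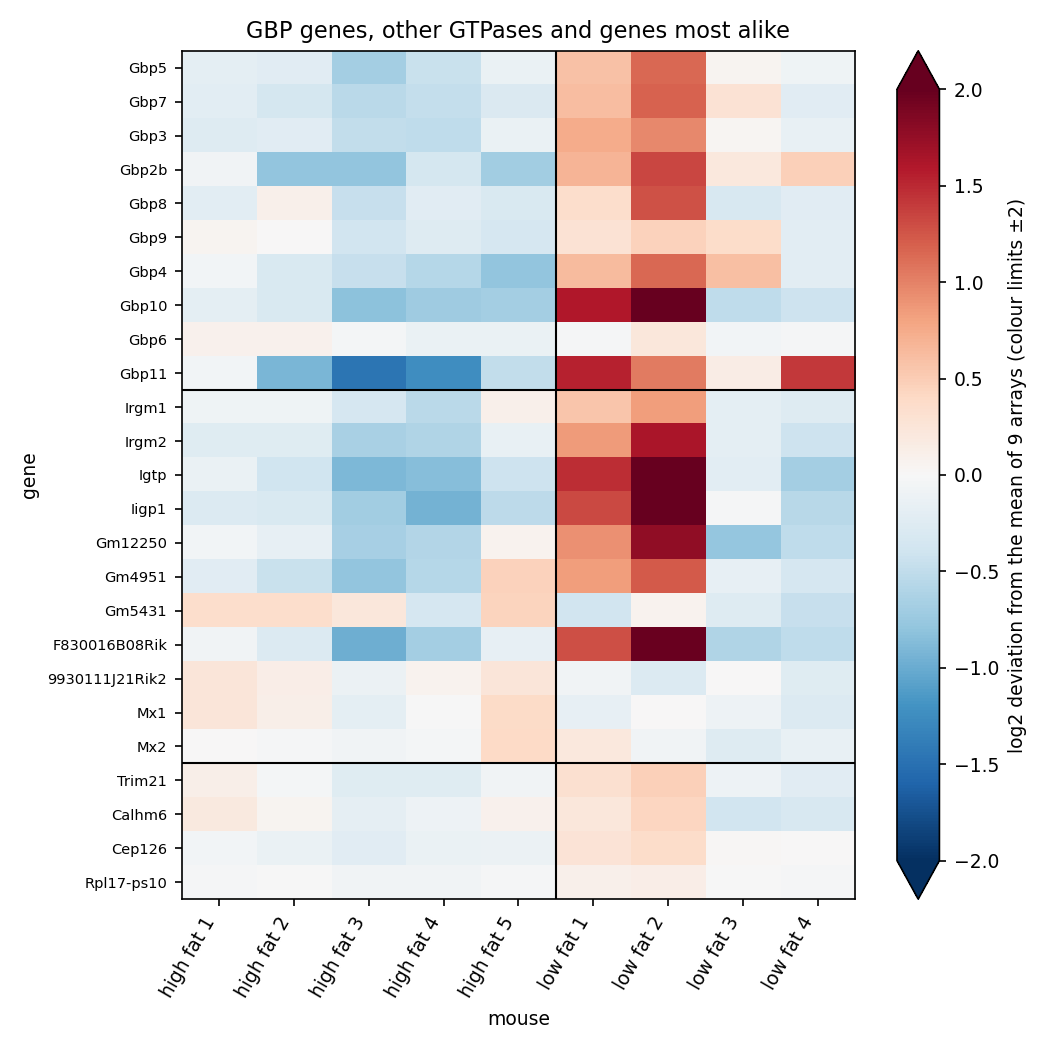
Log2 deviation of each gene from its mean over the 9 arrays (colour, limits ±2), high fat mice left and low fat mice right. The rows are GBP genes (top), other interferon-inducible GTPases (middle) and the remaining named genes most like the members' mean (bottom). Low fat mice 1 and 2 are high for most GBP genes and for Irgm1, Irgm2, Igtp and Iigp1, and Gbp11 is also high in low fat mouse 4.

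The immunity-related GTPases are the other main set of interferon gamma-inducible GTPases in the mouse, and they share duties with GBPs at pathogen vacuoles. In a list of 16 interferon-inducible GTPases outside the GBP family, 11 were measured. Limma called 0 of the 11 in either direction, with 5 at an unadjusted p under 0.05. The median log2 difference was -0.63, with 7 members below 0 and 4 above. The other 5 of the 16 GTPases were not analysed here.

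Igtp was at 8.86, 8.60, 8.09, 8.14 and 8.59 in high fat mice, against 10.48, 11.13, 8.78 and 8.32 in low fat mice. As for Gbp10, low fat mice 1 and 2 stood far above the rest. Its difference was -1.22 ± 0.52 (SE; limma adjusted p = 0.131), and that of Iigp1 was -1.23 ± 0.45 (SE; limma adjusted p = 0.0845). Without low fat mouse 4 both passed (limma adjusted p = 0.0351 for gene Igtp and 0.0195 for gene Iigp1). Without low fat mouse 2 gene Igtp was at -0.74 and gene Iigp1 at -0.80 (limma adjusted p = 0.293 and 0.180). Irgm2 and Irgm1, regulators that keep the other immunity-related GTPases off host membranes, differed by -0.84 ± 0.37 and -0.42 ± 0.23 (SE; limma adjusted p = 0.142 and 0.244), and were picked for mention after their values were seen. The smallest unadjusted p-values on this list belonged to genes that were higher in high fat mice, 9930111J21Rik2 (0.26 ± 0.09 (SE), limma adjusted p = 0.0538) and Gm5431 (0.47 ± 0.16 (SE), limma adjusted p = 0.0695), named here after their values were seen. Mx1, an antiviral dynamin-like GTPase induced by type I interferon, was at 0.24 ± 0.11 (SE), above 0 (limma adjusted p = 0.155).

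Upstream in the pathway, the transcript of the ligand did not pass the test. Ifng was at 6.20, 6.31, 6.31, 6.31 and 6.35 in high fat mice, against 6.31, 6.34, 6.29 and 6.23 in low fat mice. All values lay below the medians of the arrays, and whether they lay above background was not determined. The difference of Ifng was 0.002 ± 0.042 (SE; limma adjusted p = 0.981), and its sign turned with the normalization (-0.03 with quantile normalization repeated and -0.04 with arrays centred on their medians).

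Among receptor and signalling genes, those that passed were higher in high fat mice. Ifngr2, the signalling chain of the receptor, was at 10.70, 10.73, 10.84, 10.64 and 10.57 in high fat mice, against 10.03, 9.65, 9.86 and 9.89 in low fat mice. The diets did not overlap, and the gene rose 1.79-fold (limma adjusted p = 0.000121). Irf8, a transcription factor of myeloid cells, rose 2.18-fold (log2 difference 1.13 ± 0.11 (SE), limma adjusted p = 0.000173; 0.72 with the mean of all probe sets of gene Irf8), and Stat3, a signal transducer of many cytokines, rose 1.18-fold (limma adjusted p = 0.00654). Jak1 rose by 0.16 ± 0.05 (SE) on the log2 scale (limma adjusted p = 0.0319). The call of gene Jak1 was lost with arrays centred on their medians (0.12) and without any 1 mouse other than high fat mouse 1 and low fat mice 1 and 3 (0.14 to 0.17). The ligand-binding chain Ifngr1 was at -0.08 ± 0.04 (SE), Jak2 at 0.04 ± 0.05, Irf1 at -0.27 ± 0.14 and Irf9 at 0.19 ± 0.14, and these 4 genes did not pass (limma adjusted p = 0.264, 0.704, 0.215 and 0.399 in that order). With arrays centred on their medians the sign of gene Jak2 turned (-0.0089).

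Of 21 measured genes on the interferon gamma pathway list, 5 rose and 2 fell, with a median log2 difference of 0.04. The ones that fell were the chemokines Cxcl9 and Cxcl11, ligands of the chemokine receptor Cxcr3 on T cells. Cxcl9 was at 11.26, 11.34, 10.93, 10.86 and 10.97 in high fat mice, against 12.12, 12.35, 11.77 and 11.77 in low fat mice, without overlap, and was 1.91-fold lower (limma adjusted p = 0.00134). Cxcl11 was 1.58-fold lower (limma adjusted p = 0.0180), and gene Cxcl11 no longer passed without low fat mouse 1 (-0.57, limma adjusted p = 0.0525). As for most GBP genes, low fat mice 1 and 2 were the highest for both chemokines.

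Among genes driven mainly by type I interferon, 1 of 20 measured rose and 0 fell, with 3 at an unadjusted p under 0.05 and a median log2 difference of -0.04. The one that rose was Oasl1, a translational brake on Irf7 (0.54 ± 0.15 (SE), limma adjusted p = 0.0307), and it did not pass without any 1 of high fat mice 1, 2 and 3 or low fat mice 2, 3 and 4 (0.49 to 0.55, limma adjusted p from 0.0554 to 0.0844). Isg15, a ubiquitin-like modifier, was at 0.19 ± 0.08 (SE; limma adjusted p = 0.116). In class I antigen processing, 1 of 12 measured genes fell, the proteasome activator subunit Psme1, by 0.36 on the log2 scale (limma adjusted p = 0.00332), 0 rose, and the median was -0.20. Of 20 genes with promoter windows on the type I list, 11 held the response element core described above, as did 7 of 10 on the GTPase list. The core of the gamma-activated site was held by 3 and 5 of them in that order. On the interferon gamma pathway list, 3 of 14 genes held the response element core and 5 of 14 the gamma-activated core. On the inflammasome and pyroptosis list, described below, 0 of 11 genes held either core. For all genes with a window the shares were 3.99% for the response element core and 9.55% for the gamma-activated core.

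GBPs act upstream of inflammasomes in cytosolic defence. Of 13 inflammasome and pyroptosis genes, 6 rose and 0 fell, with a median log2 difference of 0.22. Casp1, the inflammasome protease, rose 1.80-fold (limma adjusted p = 0.00254), Pycard, the adaptor ASC, 1.48-fold (0.00280) and Casp4, the sensor of cytosolic lipopolysaccharide, 1.48-fold (0.00101). Autophagy conjugation and prenylation help to place GBPs on membranes. Not every gene on the 2 lists used here encodes a conjugation factor or a prenyltransferase. Limma called 0 of 10 genes on the autophagy list and 0 of 7 on the prenylation list, with 1 in each at an unadjusted p under 0.05. Of 9 other dynamin superfamily genes, Dnm3 rose (0.38 ± 0.08 (SE), limma adjusted p = 0.00554), Mfn2, a mitochondrial fusion GTPase, fell by 0.35 on the log2 scale (limma adjusted p = 0.00530), and the dynamin gene Dnm1 rose (0.41 ± 0.12 (SE), limma adjusted p = 0.0388). The call of gene Dnm1 was lost without any 1 mouse other than high fat mouse 1 and low fat mouse 1 (limma adjusted p from 0.0523 to 0.107). It was also lost with quantile normalization repeated (0.0721), with arrays centred on their medians (0.0540) and with all rows adjusted together (0.0553). The difference of gene Dnm3 was 0.18 with the mean of all its probe sets, and it still passed (limma adjusted p = 0.0442).

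**Figure D4:**
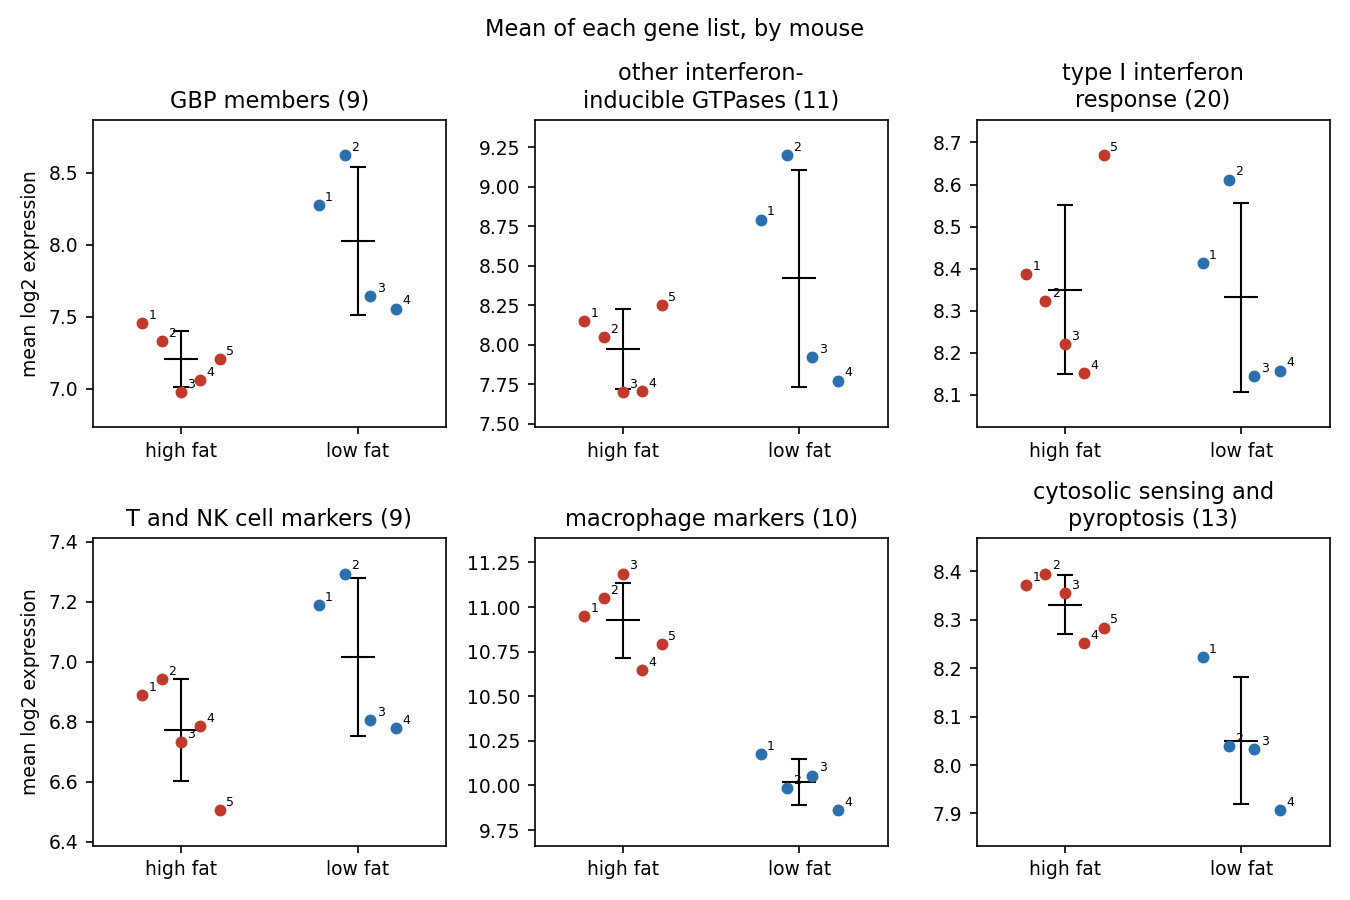
Mean log2 expression of each gene list in each mouse (numbered within its diet), with a bar for the mean and whiskers for the SD; the number of measured genes is in each title, and each panel has its own axis. GBP members, other interferon-inducible GTPases and T and NK cell markers are highest in low fat mice 1 and 2. Macrophage markers and inflammasome genes are higher in every high fat mouse than in every low fat mouse.

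Markers of cell types moved beside these results, and their part in them was not tested. In bulk tissue, fewer cells of a type and less RNA per cell cannot be told apart. T and NK cell markers, whose cells secrete interferon gamma, had a mean over 9 measured genes of 6.50 to 6.94 in high fat mice, against 6.78 to 7.29 in low fat mice, and low fat mice 1 and 2 were the 2 highest of all mice (7.19 and 7.29). Of these 9 markers, 0 rose and 1 fell, the NK cell receptor Ncr1 (log2 difference -0.49 ± 0.13 (SE), limma adjusted p = 0.0262). The diets overlapped for Ncr1, and its call was not followed under the alternatives. Nkg7 and Klrb1c, also on this list, were at -0.32 and 0.02 and did not pass (limma adjusted p = 0.337 and 0.856). For this and every other marker list, the shares over all genes were 9.13% fallen and 12.4% risen. Low fat mice 1 and 2 were also highest for other interferon-inducible GTPases (8.79 and 9.20) and class I antigen processing genes (9.95 and 10.21). The same held for the interferon gamma pathway list (8.78 and 8.77), so this order was not particular to T and NK cell markers. B cell markers were lower on average in high fat mice in 7 of 7 measured genes, with a median log2 difference of -0.85, and limma called 0 of them, with 4 at an unadjusted p under 0.05. Their means were 7.21 to 8.36 in high fat mice, against 8.01 to 9.19 in low fat mice, and low fat mice 1 and 3 were the highest (9.19 and 8.99). Macrophage markers rose in 9 of 10 and fell in 1, with means of 10.65 to 11.19 in high fat mice, against 9.86 to 10.18 in low fat mice. Adipocyte markers fell in 6 of 9 and rose in 1, with means of 12.70 to 12.86 in high fat mice, against 12.95 to 12.97 in low fat mice, which were among the brightest on the arrays. Fibroblast markers rose in 5 of 8 and fell in 0, with means of 11.10 to 11.47 in high fat mice, against 10.33 to 10.66 in low fat mice. Endothelial markers rose in 1 of 10 and fell in 2, with means of 9.87 to 10.05 in high fat mice and 9.92 to 10.11 in low fat mice. Neutrophil markers rose in 1 of 8 and fell in 2, and limma called 0 of 7 mesothelial markers, with 0 at an unadjusted p under 0.05.

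Markers of other tissue pointed to single mice. Smooth muscle markers had means of 8.73 to 8.94 in high fat mice, and in low fat mice of 8.53 to 8.60 except for mouse 2, at 10.48. Skeletal muscle markers had means of 6.56 to 6.76 in 7 mice, with high fat mouse 1 at 8.84 and low fat mouse 4 at 7.65. Prostate and seminal vesicle markers were at 5.22 to 5.33 in high fat mice and 5.22 to 5.30 in low fat mice. Over all rows, values spread slightly wider on the arrays of high fat mice 1 and 2 (SD of 1.87) than on the others (1.83 to 1.84). Without high fat mice 1 and 2 together, 3 members fell, and without low fat mouse 2 alone, 3 members fell. Over all genes 14.5% and 18.4% were called in either direction in these fits. In both cases Gbp4 and Gbp11 were among those that passed.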

How the data were processed

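The authors deposited 1 log2 value per probe set and array. The submitters' processing notes name RMA, R 3.5.0 and limma without saying what each did. The values are taken to come from RMA, a method of background correction, quantile normalization and summary of probes. The sources used here give no annotation version, row filter or scan batch. Per the labels' protocols, RNA had an integrity number above 7. The table has 33793 rows, of which 23521 carry 1 gene symbol; rows with several symbols or none (1814 and 8458) entered no gene result. The brightest probe set per symbol was kept, leaving 22180 genes, and the 9 members matched RefSeq through Entrez identifiers.

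Diet was fitted with limma 3.58.1 (lmFit, eBayes) in R 4.3.3 on all 9 arrays without covariates, with Benjamini-Hochberg adjustment over all genes and a threshold of 0.05. Differences are high fat minus low fat, and folds are powers of 2. The script was tested on simulated data. Members and gene lists were chosen with earlier results of these data known. All members and a fixed set of pathway genes were named whatever their values, except that an item is not reported here. From each pathway list the 3 genes with the smallest p in each direction among those called were named. The 6 genes most like the members' mean were named too, with predicted and unnamed gene models left out of the ranking. Alternatives covered normalization, centring, dim genes, probes, variance model, array weights, mouse number, all rows, muscle markers, and left-out mice. Mice with the same number came from different animals, and the number pairs nothing.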

Additional observations from a re-analysis of the deposited data

Results flagged for a closer look

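In groups of 4 and 5 mice, a mouse was marked where its gap to the nearest other mouse took up most of its group's range (Dixon's 95% critical value). Of 74 groups tested over 37 genes, 3 were marked, and chance marks about 1 in 20. In low fat mice, Gbp6 ran from 4.73 to 4.76 except in mouse 2, at 5.00, the mouse that was also the highest of its diet for 7 other members. In high fat mice, Ifng ran from 6.31 to 6.35 except in mouse 1, at 6.20. In the same diet, Ifngr1 ran from 12.06 to 12.09 except in mouse 3, at 11.95.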

How the results depend on the processing

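With only 9 arrays, single mice decided several calls, and some calls near the threshold also changed with the normalization or the model. The count of GBP members that fell was 5 of 9. It was 4 with array weights, 6 with quantile normalization repeated, or with arrays centred, 6 of the 7 members kept with dim genes left out, 3 with all rows of the table adjusted together, 3 with skeletal muscle markers as a covariate and 3 without high fat mice 1 and 2 together. It ran from 2 to 6 without each mouse in turn. No member rose under any alternative run. The median difference of the members ran from -0.93 to -0.54 without each mouse in turn and stayed below 0 under every alternative. The count of all genes called, 4768, ran from 3759 to 4364 without each mouse in turn and from 3210 to 5317 under the other alternatives. Mouse numbers pair no animals: deviations of mice with the same number correlated at 0.05 to 0.13 across genes, and with the number as a replicate block 5 members and 4036 genes were called. In that fit the calls of gene Jak1 (0.117) and gene Dnm1 (0.113) were lost, and gene Iigp1 passed (limma adjusted p = 0.0401).

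Gene Gbp6 ran from -0.087 to 0.0049 without each mouse in turn, and turned sign without low fat mouse 2. Signs also turned for 3 other genes near 0. Gene Ifng was at -0.029 with quantile normalization repeated, -0.042 with arrays centred and -0.011 with the replicate block, and ran from -0.018 to 0.025 without each mouse in turn. Gene Jak2 was at -0.0028 with quantile normalization repeated, -0.0089 with arrays centred and -0.0085 without high fat mice 1 and 2. Gene Calhm6 was at -0.0053, -0.021 and -0.051 in those settings and ran from -0.10 to 0.17 without each mouse in turn. The cause was not tested. Dim values limit Gbp6, Gbp8, Ifng and Rpl17-ps10. The same limit holds for Gbp2b, Cxcl11, Mx1, Isg15, Calhm6 and Cep126, which were also dropped when dim genes were left out. Gbp11 was kept, but its values in high fat mice other than mouse 1 were 5.84 to 6.81. These lay below the medians of the arrays over all genes (6.91 to 6.98).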
